A study of Mus musculus with 22 samples.

Results

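Bcl11a, Bcl11b, Fezf2, Tbr1, Etv1, Cux1, Cux2, Foxp1 and Foxp2 encode 9 DNA-binding proteins known for their part in building the projection neurons of the cerebral cortex. They were picked by gene symbol from the 55385 gene identifiers quantified in ribosome-bound mRNA of 6 mouse brain cell types. Each gene's value is the sum over its transcripts, 105 for the 9 genes together, of which 67 are annotated as protein coding. All 9 of 9 genes passed the filter on low counts.

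Every mouse was Rpl22 Fl/+, carrying 1 allele of the ribosomal protein gene Rpl22 that gains an HA tag after Cre recombination, and tissue was taken at 6 weeks of age. Layer V cortical neurons (cortex) and dentate gyrus granule cells (hippocampus) were tagged by the same driver, Rbp4-Cre. Cerebellar granule cells (cerebellum) were tagged by Gabra6-Cre and inhibitory interneurons by Dlx6a-Cre, from hippocampus pooled over 2 mice per library. Cortical astrocytes carried a driver labelled Aldh1-cre and cortical microglia Tmem119-cre, both tamoxifen-inducible and induced from 3 weeks of age. Each cell type had 3 biological replicates, so the 18 libraries compared hold 12 neuronal and 6 glial ones, and the study made them to set translated mRNA beside tRNA expression in the same types.

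The transcript estimates of these 18 libraries summed to between 38270477 and 71440915 counts. All interneuron and microglia libraries came from the second of 2 sequencing batches, and for 4 replicates sequenced in both, the members' TPM (a share of all transcripts in the library, corrected for transcript length) in the second batch over the first lay between 0.919 and 1.19 (median 0.987 over 31 values of 1 TPM or more). One of the 4, layer V replicate 1, is labelled female in the first batch and male in the second, but both libraries had the Y-linked Ddx3y near 0 (0.0859 and 0.034 TPM, against 27 in layer V replicate 3), and only the first entered the comparisons. Marker genes of dentate granule cells (5 of 5), cerebellar granule cells (6 of 6), inhibitory neurons (8 of 8), astrocytes (5 of 5) and microglia (6 of 6) were all highest in the type so labelled. A list of 7 layer V markers did not single out the layer V libraries. Only Deptor was highest there, and the summed level was 399 to 407 TPM against 387 to 468 in dentate gyrus granule cells. Excitatory neuron markers summed to 2730 to 2820 TPM in layer V neurons, 415 to 565 in astrocytes and 226 to 277 in microglia. Oligodendrocyte markers summed to 2680 to 2880 TPM in interneurons and at most 1160 elsewhere, and their part in any interneuron value was not tested. Of 5 CA pyramidal markers, 4 were highest in dentate gyrus granule cells. The list summed to 134 to 256 TPM there and to 226 to 248 in layer V neurons. The part of CA pyramidal neurons in any dentate gyrus value was not tested. In a library of pooled ribosomes, fewer cells carrying an mRNA and less mRNA per cell cannot be told apart.

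During cortical development these factors sort newborn glutamatergic neurons into layers and axonal targets. Fezf2 and Bcl11b (Ctip2) direct subcerebral projection neurons of layer V, Tbr1 directs corticothalamic neurons of layer VI and opposes Fezf2, and Cux1 and Cux2 mark the upper layers. Several of them are also known outside the cortex, Bcl11b in dentate granule cells and Etv1 in the cerebellum among them, and most stay on in the adult brain.

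Named for the cortex, the 9 genes were not led by layer V neurons as a group. By mean TPM, 4 of them (Bcl11a, Fezf2, Tbr1 and Foxp1) were highest in layer V neurons, 2 (Etv1 and Cux1) in cerebellar granule cells, 2 (Cux2 and Foxp2) in inhibitory interneurons and 1 (Bcl11b) in dentate gyrus granule cells. Over the 15 pairs of cell types, 123 of 135 member-by-pair tests were called at an adjusted p of 0.05, where 75.1% of all gene-by-pair tests were called in either direction. Tests used edgeR's quasi-likelihood fit on estimated counts, and their log2 folds are on a count scale that is not corrected for transcript length, so they need not equal ratios of TPM.

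**Figure D1:**
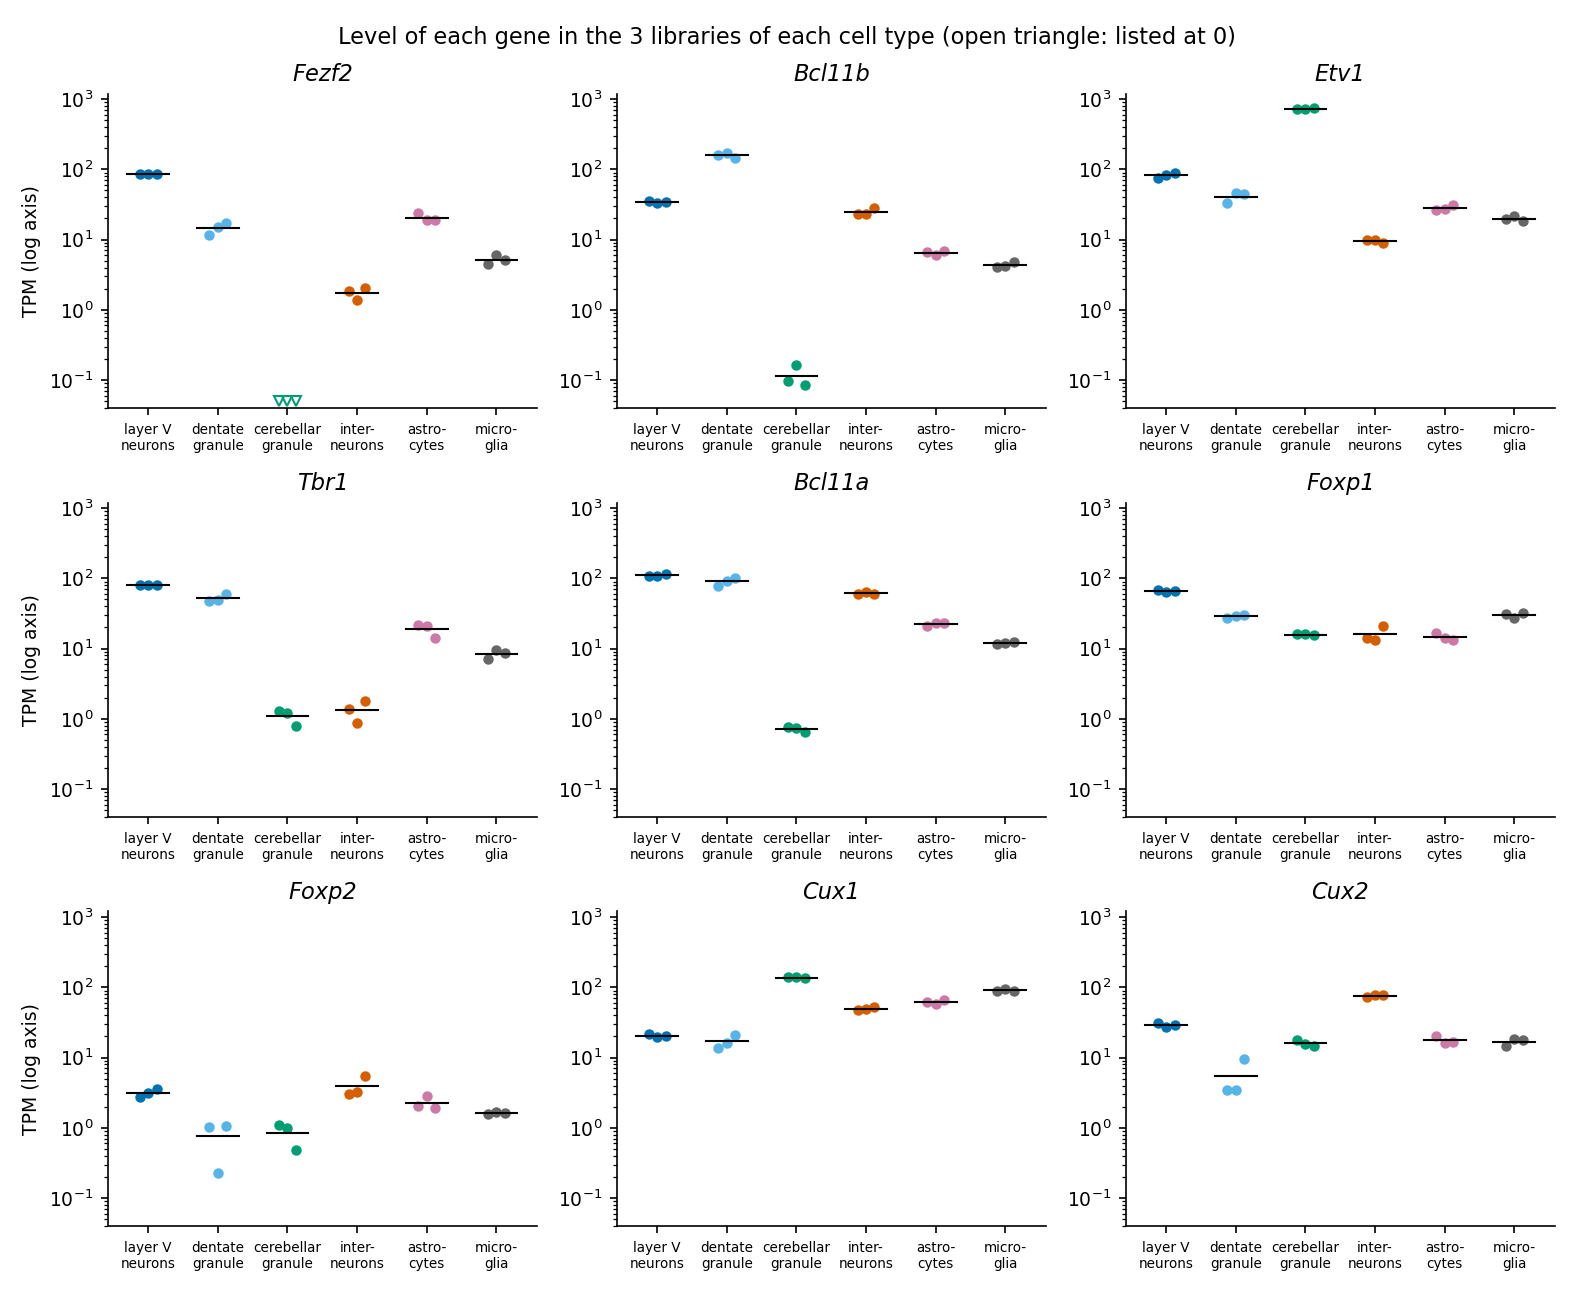
Level of each of the 9 genes in TPM (log axis) in the 3 libraries of each of the 6 cell types, with points for libraries and bars for means. Etv1 reaches 728 TPM in cerebellar granule cells, Bcl11b reaches 160 TPM in dentate gyrus granule cells, and Fezf2 is listed at 0 in all 3 cerebellar libraries (open triangles).

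Fezf2 (chromosome 14 from 12342094 to 12348189 of GRCm38, minus strand), the zinc finger selector of subcerebral projection neurons, had the sharpest gradient of the set. In layer V neurons it was at 85.4, 84.6 and 86.6 TPM, in dentate gyrus granule cells at 11.6, 15 and 17.4, and in interneurons at 1.85, 1.36 and 2.04. It was listed at 0 in all 3 cerebellar granule cell libraries and again when 1 of them was resequenced. The layer V libraries stood above all others with no overlap. Layer V neurons stood at a log2 fold of 2.77 over dentate gyrus granule cells (SE 0.13, adjusted p = 4.7e-11) and 5.90 over interneurons (SE 0.16, adjusted p = 6.9e-14). Against cerebellar granule cells only a bound can be given. With a floor of 3 counts over the group, layer V neurons were at least 6178-fold higher, dentate gyrus granule cells at least 896-fold and interneurons at least 114-fold.

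The second highest Fezf2 level was in cortical astrocytes, at 23.7, 18.7 and 19.0 TPM, and microglia were at 4.48, 6.02 and 5.05. Astrocytes exceeded dentate gyrus granule cells without overlap (log2 fold 0.80, SE 0.13, adjusted p = 3.4e-05), a call that was lost with batch 2 libraries alone, which hold 1 library of each of these types. Fezf2 in the glial libraries was 23.9% (astrocytes) and 6.06% (microglia) of its layer V level.

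Tbr1 (chromosome 2 from 61802930 to 61814114, plus strand), the T-box factor of layer VI corticothalamic neurons, was also highest in layer V neurons, at 80.8, 80.3 and 81.1 TPM. Dentate gyrus granule cells followed at 47.8, 49.5 and 60.4 TPM, in libraries whose 5 CA pyramidal markers summed to 134, 191 and 256. Astrocytes were at 21.9, 20.9 and 14.2 TPM and microglia at 7.17, 9.54 and 8.52. Forebrain glutamatergic libraries thus stood above glial ones, and glial ones above the remaining neurons. The log2 fold of layer V neurons over dentate gyrus granule cells was 0.92 (SE 0.15, adjusted p = 4.4e-05). In interneurons Tbr1 was at 1.37, 0.879 and 1.81 TPM and in cerebellar granule cells at 1.29, 1.21 and 0.788, and these 2 types overlapped and were not called apart (log2 fold of cerebellar granule cells over interneurons -0.04, SE 0.26, adjusted p = 0.90). The layer VI list of 6 markers summed to 111 to 117 TPM in layer V neurons and 141 to 148 in dentate gyrus granule cells, and its part in the Tbr1 level was not tested.

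Tbr1 transcript shares differed between cell types. The complete Tbr1-201 (681 residues) made up 98.1% ± 0.642 (SD, n = 3) of the gene's TPM in layer V neurons and 92.0% ± 2.51 in dentate gyrus granule cells. In microglia it made up 52.7% ± 2.79, with the noncoding Tbr1-203 at 46.9% ± 2.28 against 1.44% ± 0.724 in layer V neurons. Tbr1-201 stood at 80.5% ± 4.41 in astrocytes, 64.1% ± 15.2 in interneurons and 63.0% ± 20.0 in cerebellar granule cells. The last 2 types had Tbr1 near 1 TPM and spread widely, from 52.6% to 81.3% and from 40.5% to 78.6%. Among the other types the share was lower where the gene's level was lower. Tbr1-203 is only 796 bases long, and by estimated counts it held 12.1% in microglia.

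Bcl11b (chromosome 12 from 107910403 to 108003602, minus strand), the zinc finger factor of corticospinal neurons, was highest outside the cortex. Dentate gyrus granule cells were at 161, 171 and 147 TPM, layer V neurons at 35.6, 32.9 and 34.6, and interneurons at 23.3, 23.0 and 27.9. No 2 of the 6 types overlapped. The log2 fold of layer V neurons against dentate gyrus granule cells was -1.73 (SE 0.07, adjusted p = 1.8e-12) and against interneurons 0.90 (SE 0.07, adjusted p = 7.3e-09). Cerebellar granule cells were at 0.0982, 0.165 and 0.0845 TPM, from 18 to 26 counts per library, and the gene's mean in dentate gyrus granule cells was 1380-fold that level. Astrocytes (6.59, 6.02 and 6.93 TPM) stood above microglia (4.03, 4.24 and 4.77 TPM). Bcl11b and Etv1 are among the marker genes that the study itself displayed for these libraries, so their order is not independent evidence of the labels.

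The 2 main complete Bcl11b transcripts were used in different proportions, and the other complete one, Bcl11b-202 (690 residues), averaged under 5% of the TPM in every cell type. Bcl11b-203 (812 residues) lacks a coding exon of 216 bases, 72 codons, that Bcl11b-201 (884 residues) holds. Its share of the gene's TPM was 8.56%, 7.38% and 6.72% in layer V neurons and 34%, 34.7% and 32.2% in dentate gyrus granule cells. Interneurons (15.4% to 26.1%), astrocytes (26.4% to 39.5%) and microglia (18.5% to 31.7%) also lay above every layer V library. The transcripts differ in their 3′ ends too, by which a short-read estimate can tell them apart, and as shares of estimated counts the 2 means were 3.14% and 16.9%. The exon is shown as the coding difference between the 2. Whether reads over it or over the 3′ ends set the share was not tested. First comes the exon in capitals (chr12:107965672-107965887, minus strand, GRCm38, from GENCODE transcripts) with 21 bases of each neighbouring exon. Then come the joined neighbours as they stand in Bcl11b-203, with the first bases of the following exon (chr12:107915222-107917414) in capitals.
Bcl11b-201: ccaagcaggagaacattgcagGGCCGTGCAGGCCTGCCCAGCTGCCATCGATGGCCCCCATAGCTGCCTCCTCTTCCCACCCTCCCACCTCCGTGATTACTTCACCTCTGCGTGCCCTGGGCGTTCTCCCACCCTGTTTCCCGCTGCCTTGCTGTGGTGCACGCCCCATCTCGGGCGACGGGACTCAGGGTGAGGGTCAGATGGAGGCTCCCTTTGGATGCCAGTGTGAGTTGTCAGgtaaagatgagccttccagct
Bcl11b-203: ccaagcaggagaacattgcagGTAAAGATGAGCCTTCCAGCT

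Bcl11a (chromosome 11 from 24078056 to 24174123, plus strand), the close relative of Bcl11b that is best known for silencing fetal globin genes, followed a different order. It was at 109, 107 and 115 TPM in layer V neurons, 78.4, 91.0 and 101 in dentate gyrus granule cells, and 59.8, 63.4 and 60.0 in interneurons. Layer V neurons were highest in every library, by a small margin over dentate gyrus granule cells (log2 fold 0.41, SE 0.07, adjusted p = 2.5e-05) and a larger one over interneurons (1.17, SE 0.07, adjusted p = 5.9e-11). Cerebellar granule cells were at 0.762, 0.744 and 0.646 TPM, below astrocytes (20.7 to 23.4) and microglia (11.5 to 12.3). Both Bcl11 genes were therefore lowest in cerebellar granule cells. Bcl11a-204, a short complete transcript of 191 residues, made up 43.8% to 54.8% of Bcl11a TPM on average in every cell type, and 26.7% of the estimated counts in layer V neurons.

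Etv1 (chromosome 12 from 38779380 to 38870484, plus strand), the ETS factor Er81 used as a label of layer V, reached the highest level of all members, in cerebellar granule cells. Cerebellar granule cells were at 712, 726 and 745 TPM, layer V neurons at 76.4, 81.7 and 89.4, and dentate gyrus granule cells at 33.5, 45.5 and 44.0. Interneurons were lowest at 9.91, 9.91 and 8.82 TPM, under astrocytes (26.0, 27.3 and 31.0) and microglia (19.8, 21.4 and 18.4). None of the 6 types overlapped with its neighbour in the order. The log2 fold of layer V neurons was -2.83 against cerebellar granule cells (SE 0.08, adjusted p = 1.8e-15), 1.60 against dentate gyrus granule cells (SE 0.08, adjusted p = 1.2e-11) and 3.73 against interneurons (SE 0.09, adjusted p = 9.7e-16). Etv1-201 (477 residues) made up 90.7% ± 0.923 of the gene's TPM in layer V neurons and 73.9% ± 1.76 in cerebellar granule cells. Etv1-202 (437 residues), which starts at another first exon, made up 6.73% ± 0.244 and 19.6% ± 1.07 (SD, n = 3 each).

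Foxp1 (chromosome 6 from 98925338 to 99522721, minus strand), a forkhead factor of cortical layers III to V and of striatal projection neurons, was at 68.6, 64.4 and 65.6 TPM in layer V neurons. Microglia (31.2, 27.6 and 32.4 TPM) and dentate gyrus granule cells (27.3, 29.2 and 30.1) came next and overlapped (log2 fold of dentate gyrus granule cells over microglia -0.09, SE 0.11, adjusted p = 0.50). Interneurons (14.3, 13.1 and 21.3 TPM), cerebellar granule cells (16.1, 16.0 and 15.4) and astrocytes (16.7, 14.1 and 13.3) formed the lower end. Layer V neurons thus stood clear of all others, and the 3 lowest types were not called apart from each other. Over microglia, the next level, layer V neurons had a log2 fold of 1.59 (SE 0.12, adjusted p = 4.7e-10).

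Interneuron replicate 3, from 2 male mice where the others pooled both sexes, stood apart for Foxp1 and Foxp2. Its 6 striatal markers summed to 267 TPM against 79.5 and 68.8, with Adora2a at 21.3 against 3.08 and 2.03 and Ppp1r1b at 151 against 35.9 and 29.2. Zic1 was at 2.16 TPM there against 36.4 and 29.8. The part of these genes' source in the Foxp values was not tested. Without that library, Foxp1 was called higher in cerebellar granule cells than in interneurons (log2 fold 0.41, adjusted p = 8.1e-05) and lower in interneurons than in astrocytes (-0.24, adjusted p = 0.0070). All folds were in log2 from the same edgeR fit on the remaining 17 libraries.

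Foxp1 transcript shares also differed. Foxp1-206 (673 residues) made up 37.4%, 41.4% and 33.4% of Foxp1 TPM in layer V neurons, and between 8.52% and 15% on average in each other type. The highest library outside layer V was a microglial one at 18.1%. In the other types Foxp1-204 (705 residues) led, at 27.1% to 49.7% on average, against 30.4% ± 3.39 (SD, n = 3) in layer V neurons. Foxp1-206 was the larger of the pair in 2 of the 3 layer V libraries and level with Foxp1-204 in the third (33.4% against 33.8%). The proteins differ by a stretch of 96 bases, 32 codons, of which 24 are the glutamine codons CAG or CAA. The transcripts also start at different 5′ exons. Whether reads over the stretch or over the 5′ exons set the share was not tested. The stretch, the only difference between the annotated coding exons of the pair, is in capitals below (chr6:99075950-99076045, minus strand, GRCm38, from GENCODE transcripts), with 21 shared bases on each side.
Foxp1-204: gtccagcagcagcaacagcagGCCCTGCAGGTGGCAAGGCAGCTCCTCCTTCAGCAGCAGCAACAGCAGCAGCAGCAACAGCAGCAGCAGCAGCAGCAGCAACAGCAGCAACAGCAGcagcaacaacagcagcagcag

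**Figure D2:**
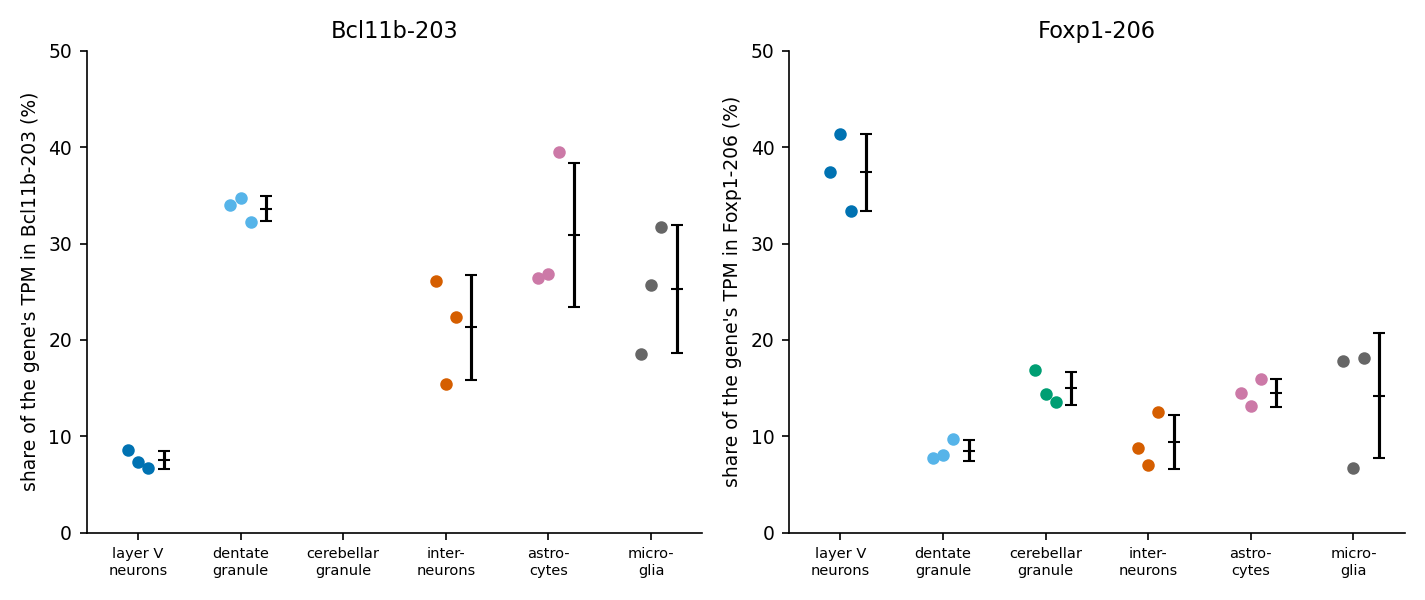
Share of the gene's TPM (percent, per library) held by Bcl11b-203 and by Foxp1-206 in each cell type, with bars for the mean and SD of 3 libraries. Bcl11b-203 is at 6.72% to 8.56% in layer V neurons and 32.2% to 34.7% in dentate gyrus granule cells, Foxp1-206 is at 33.4% to 41.4% in layer V neurons, and cerebellar granule cells are left out for Bcl11b because the gene is near 0 there.

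Foxp2 (chromosome 6 from 14901349 to 15441977, plus strand), the forkhead factor of deep-layer corticothalamic neurons and of vocal learning circuits, was low in every cell type and the lowest member in layer V neurons, dentate gyrus granule cells and both glial types. Interneurons were at 3.04, 3.22 and 5.40 TPM, layer V neurons at 2.74, 3.18 and 3.58, and astrocytes at 2.04, 2.86 and 1.93. These 3 types were not called apart (layer V neurons over interneurons 0.32, SE 0.19, adjusted p = 0.16, and over astrocytes 0.19, SE 0.19, adjusted p = 0.37). By counts over library size layer V neurons were highest, and a truncated transcript of 352 bases, Foxp2-216, took 38.3% of the TPM but 2.18% of the counts in interneurons. Without interneuron replicate 3, layer V neurons were called higher (log2 fold 0.59, adjusted p = 0.0098). Dentate gyrus (1.04, 0.228 and 1.05 TPM) and cerebellar granule cells (1.09, 1.00 and 0.476) were lowest and overlapped. Layer V neurons exceeded both, by log2 folds of 3.35 and 3.62 (SE 0.23 each).

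Cux1 (chromosome 5 from 136248135 to 136567490, minus strand), a cut-homeodomain gene used as a mark of upper layers, was low in forebrain excitatory neurons. It was highest in cerebellar granule cells at 138, 138 and 137 TPM, followed by microglia (89.6, 93.3 and 89.0), astrocytes (62.8, 58.3 and 65.2) and interneurons (47.8, 49.0 and 51.7). Layer V neurons were at 21.6, 19.4 and 20.2 TPM, and dentate gyrus granule cells, at 13.8, 16.1 and 21.1, overlapped with them in TPM but were called lower (log2 fold of layer V neurons 0.59, SE 0.09, adjusted p = 1.6e-05). Both glial types therefore exceeded the 3 forebrain neuronal types. Layer V neurons stood at a log2 fold of -2.62 against cerebellar granule cells (SE 0.09, adjusted p = 2.2e-14), -0.82 against interneurons, -1.46 against astrocytes and -1.95 against microglia.

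Most of this level lay in transcripts without the homeodomain. The gene has 14 annotated transcripts in the files, of which 4 complete ones encode the homeodomain signature (tryptophan, phenylalanine, any residue, asparagine, any residue, arginine) and 2 complete ones, Cux1-211 (676 residues) and Cux1-207 (678 residues), do not. As background, Cux1 is known to encode also CASP, a Golgi membrane protein that shares the coiled-coil start of the factor and has no homeodomain. The 2 transcripts without the signature held 74.0% of Cux1 TPM in layer V neurons and 84.6% in microglia, and the 4 with it held 11.9% and 6.20%. As shares of estimated counts, which favour long transcripts, the 4 held 39.3% and 24.3%. The remaining 8 transcripts are incomplete, noncoding or targets of decay. An incomplete one that also holds the signature, Cux1-209, was at or near 0 in every library.

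The junctions are shown as the place where the forms part. Whether reads over them or over the later exons set the Cux1 shares was not tested. Cux1-201 (1426 residues, 24 exons) and Cux1-211 (23 exons) share exon 14, in lower case, and then continue into different exons in capitals, at chr5:136312643-136313008 for Cux1-201 and at chr5:136257913-136258040 for Cux1-211 (minus strand, GRCm38, from GENCODE transcripts).
Cux1-201: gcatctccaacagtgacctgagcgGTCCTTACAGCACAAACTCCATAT
Cux1-211: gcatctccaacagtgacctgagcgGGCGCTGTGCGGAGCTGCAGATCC
The codons of the signature, in capitals below, span the border of exons 23 and 24 of Cux1-201 within chr5:136275466-136279446.
Cux1-201 signature: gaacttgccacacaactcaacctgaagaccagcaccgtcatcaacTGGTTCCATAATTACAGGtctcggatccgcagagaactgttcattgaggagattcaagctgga

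Split in this way, homeodomain transcripts were at 2.68, 2.41 and 2.19 TPM in layer V neurons, 1.80, 1.68 and 2.21 in dentate gyrus granule cells and 19.1, 19.2 and 19.1 in cerebellar granule cells. Interneurons averaged 4.26 TPM, astrocytes 4.45 and microglia 5.62. Cerebellar granule cells thus stood well apart for this form, while for the complete transcripts without it microglia (75.5, 77.5 and 77.0 TPM) came near them (103, 105 and 100). Cerebellar granule cells over microglia gave a log2 fold of 1.55 with the homeodomain (SE 0.10, adjusted p = 5.3e-11) and 0.24 without it (SE 0.08, adjusted p = 0.013). The mean of the 4 neuronal types was below that of the 2 glial types for both forms, by log2 folds of -0.42 (SE 0.06) and -1.30 (SE 0.05). Cerebellar granule cells nevertheless exceeded both glial types for both forms, with log2 folds over astrocytes of 1.92 with the homeodomain and 0.74 without it. The difference between the 2 forms' folds was not tested, and the split was chosen after the data were seen.

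**Figure D3:**
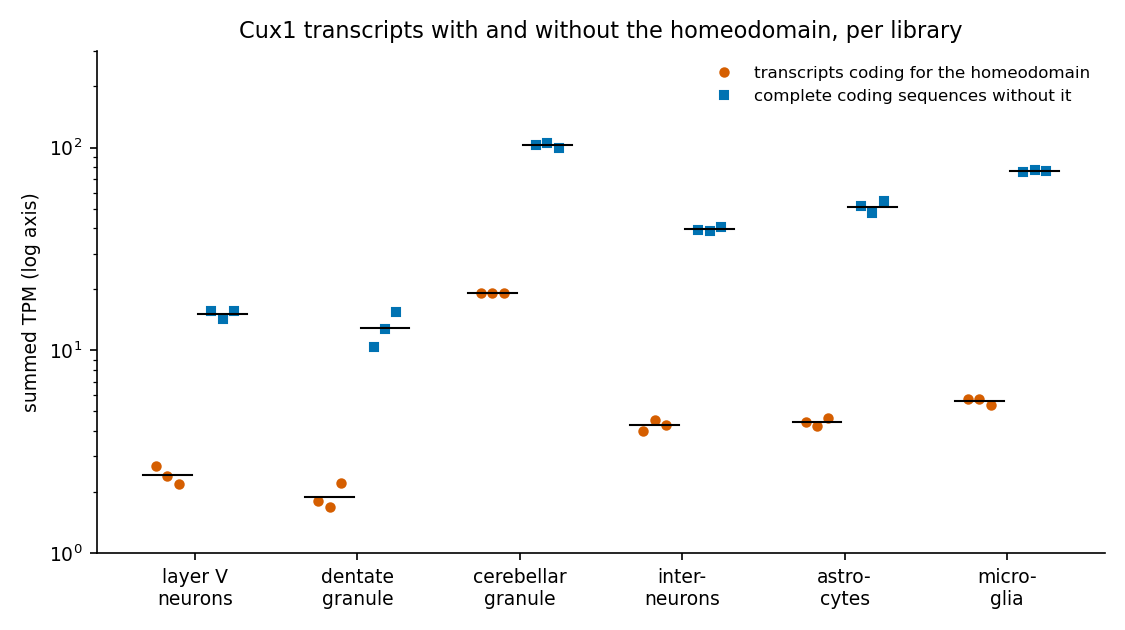
Summed TPM (log axis) of the 4 complete Cux1 transcripts that encode the homeodomain signature (circles) and of the 2 complete coding transcripts without it (squares), per library and cell type, with bars for means. In layer V neurons the means are 2.43 and 15.1 TPM, in cerebellar granule cells 19.2 and 103 TPM and in microglia 5.62 and 76.7 TPM.

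Cux2 (chromosome 5 from 121856366 to 122050102, minus strand), the paralogue of Cux1 and likewise a mark of upper-layer neurons, was highest in interneurons at 71.9, 77.9 and 78.8 TPM. Layer V neurons were at 30.9, 27.2 and 29.0 TPM. Astrocytes (20.0, 16.1 and 16.6), microglia (14.8, 18.2 and 17.7) and cerebellar granule cells (18, 15.5 and 14.4) overlapped and were not called apart. Layer V neurons lay between these and the interneurons, clear of both. A list of 6 layer II-IV markers summed to 395 to 413 TPM in layer V neurons, where Lamp5 alone averaged 327, and 365 to 401 in interneurons. Its part in the Cux2 level was not tested. In log2, layer V neurons stood at -1.14 against interneurons (SE 0.23, adjusted p = 0.00033) and 0.81 against astrocytes (SE 0.23, adjusted p = 0.0039).

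Dentate gyrus granule cells were lowest for Cux2 and spread widely, at 3.43, 3.49 and 9.56 TPM. The third library also had Wfs1, a marker of CA pyramidal neurons, at 117 TPM against 38.0 and 60.6, and Neurod6 at 42.4 against 17 and 20.1, and its 5 CA pyramidal markers summed to 256 against 134 and 191. Their part in the Cux2 value was not tested. Without that library the log2 fold of layer V neurons over dentate gyrus granule cells was 3.5, against 2.85 with it (SE 0.25, adjusted p = 2.1e-08). Cux2 transcripts differed as well. Cux2-210 (1426 residues) was at or near 0 in all 3 layer V libraries and made up 18.8% ± 1.30 (SD, n = 3) of Cux2 TPM in interneurons, while a retained-intron transcript of 1560 bases, Cux2-211, made up 37.5% ± 1.01 and 26.5% ± 2.86.

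Against the mean of the other 3 neuronal types, which asks what sets layer V neurons apart among neurons, 8 members were higher and 1, Cux1, was lower. Of all 20524 genes tested, 35.9% were higher and 31.7% lower. At 4-fold or more 6 members were higher and 0 lower, against 8.84% and 2.24% of all genes. The median log2 fold over the 9 members was 2.43, that of Foxp2, and 0.04 over all genes tested. The largest were Fezf2 at 8.09, whose size depends on the prior count because cerebellar granule cells had none, Tbr1 at 4.82 (SE 0.13) and Bcl11a at 2.95 (SE 0.05). Bcl11b was at 2.53 (SE 0.07), Foxp1 at 2.16 (SE 0.09), Cux2 at 0.90 (SE 0.18), Etv1 at 0.83 (SE 0.06) and Cux1 at -0.95 (SE 0.08).

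This contrast averages log2 values over types, and the near absence of a gene from cerebellar granule cells weighs heavily in it. Bcl11b, Etv1 and Cux2 were higher in layer V neurons than in the mean, yet each was lower there than in 1 of the 3 types. Pair by pair, layer V neurons were higher than dentate gyrus granule cells for 8 members and lower for 1, Bcl11b, where 30.3% of all genes were higher and 33.1% lower. They were higher than cerebellar granule cells for 7 and lower for 2, Etv1 and Cux1 (42% and 34.1% of all genes). They were higher than interneurons for 6 and lower for 2, Cux1 and Cux2 (29% and 31.7% of all genes), with Foxp2 not called. Members that were higher in layer V neurons than in all 3 other neuronal types numbered 4, the same 4 that led by TPM.

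**Figure D4:**
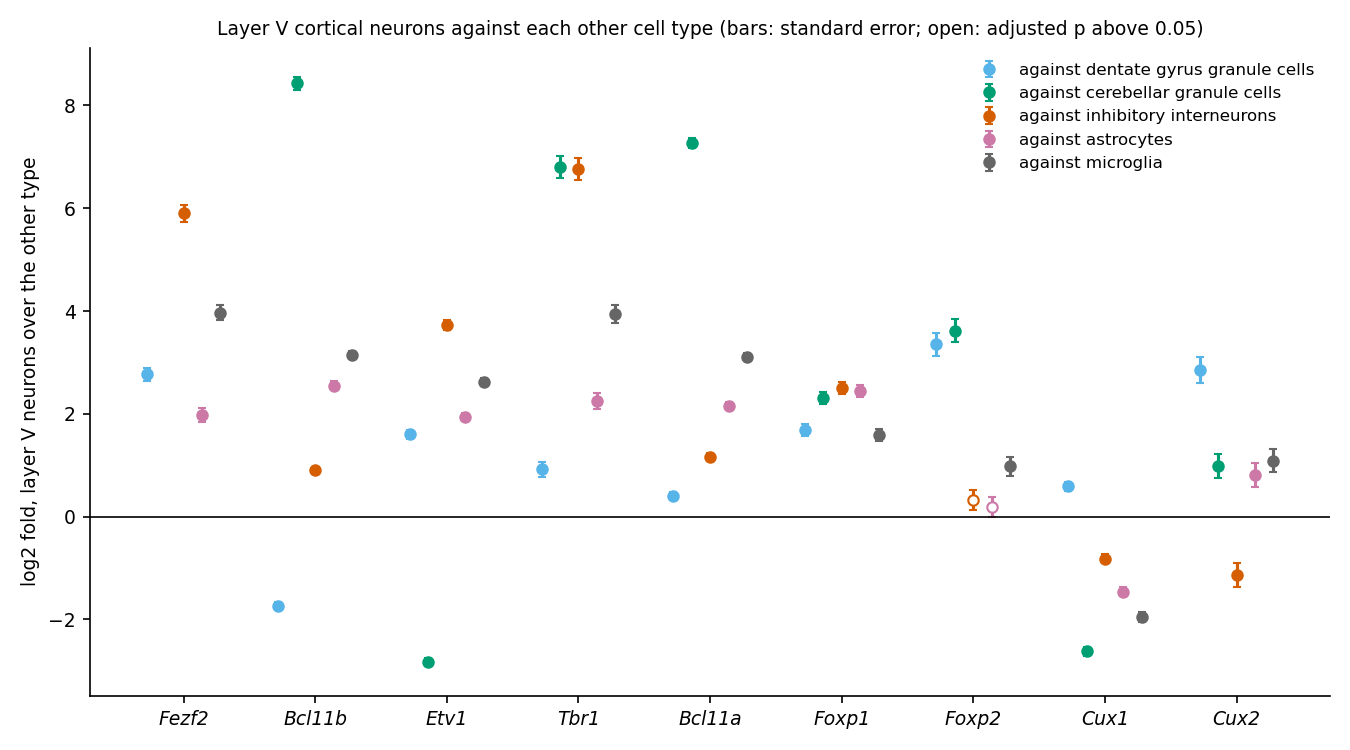
Log2 fold of layer V cortical neurons over each of the other 5 cell types for the 9 genes, from edgeR, with bars for the standard error and open points for adjusted p above 0.05. Cux1 lies below 0 in 4 of the 5 comparisons, Bcl11b lies at -1.73 against dentate gyrus granule cells, and Fezf2 against cerebellar granule cells is not drawn because that type had 0 counts.

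Against glia the members split. In the mean of the 4 neuronal types over the mean of the 2 glial types, 4 members were higher (36.4% of all genes) and 4 lower (46.8%), with a median log2 fold of 0.28, that of Cux2, against -0.18 over all genes. Etv1 (1.66, SE 0.05), Bcl11b (0.95, SE 0.06), Bcl11a (0.42, SE 0.05) and Foxp1 (0.40, SE 0.07) were higher. Lower were Foxp2 (-1.24, SE 0.12), Cux1 (-0.99, SE 0.05), Tbr1 (-0.52, SE 0.11) and Fezf2 (-3.09, SE 0.18), the last again set by its 0 counts in cerebellar granule cells. Tbr1 was nevertheless higher in layer V neurons and dentate gyrus granule cells than in either glial type, by log2 folds of 1.33 to 3.94. Foxp2 was called lower than in glia only in dentate gyrus and cerebellar granule cells. Both glial types came from cortex, as did only layer V among the neurons, so region and cell class cannot be told apart in this mean. Cux2 was not called (0.28, SE 0.14, adjusted p = 0.084). At 4-fold or more 0 members were higher and 1, Fezf2, lower, against 5.08% and 17.8% of all genes. On TPM rather than counts (limma on log2(TPM + 1)), Tbr1 (-0.17, adjusted p = 0.13) and Foxp2 (-0.05, adjusted p = 0.72) were no longer called.

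Within the cortex, layer V neurons exceeded both glial types for most members. They were higher than astrocytes for 7 and lower for 1, Cux1 (38.2% and 39% of all genes), with Foxp2 not called. They were higher than microglia for 8 and lower for 1, again Cux1 (40.5% and 42.7% of all genes). The 5 factors Fezf2, Tbr1, Bcl11a, Bcl11b and Foxp1 were in astrocytes at 19.0% to 23.9% of their layer V TPM. Excitatory neuron markers stood there at 11% to 25.4%, Slc17a7 at 17.1%, Camk2a at 18.6%, Slc17a6 at 25.4% and Neurod6 at 11%.

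In microglia the same markers stood at 9.04%, 9.85%, 8.63% and 4.94% of the layer V level. Fezf2 (6.06%) lay within their range, and the other members lay above it. Tbr1 (10.4%), Bcl11a (10.9%) and Bcl11b (12.7%) did so by little. The Tbr1 percentage is of the sum over all its transcripts. In microglia the noncoding Tbr1-203 averaged 3.94 TPM beside Tbr1-201 at 4.43, against 1.16 and 79.2 in layer V neurons. Etv1 (24%), Foxp1 (45.9%), Foxp2 (51.0%) and Cux2 (58.2%) lay above the range by more, and Cux1 reached 444%. Foxp1 was thus higher in microglia than in astrocytes, where it was at 22.2%. Cux2 and Foxp2 in astrocytes stood at 60.4% and 71.8%, and Etv1 at 34.1%. The part of neuronal mRNA in the glial values was not tested.

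**Figure D5:**
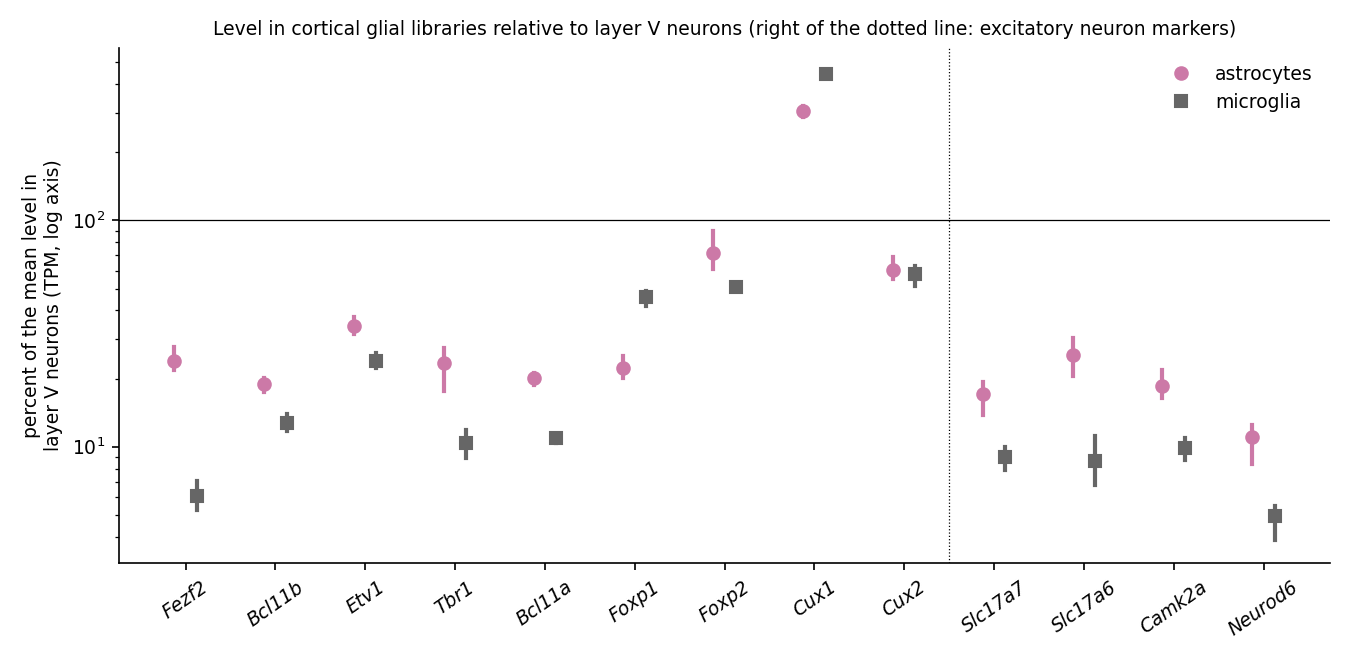
Level of each member in astrocytes (circles) and microglia (squares) as a percent of its mean TPM in layer V neurons (log axis), with bars from the lowest to the highest of 3 libraries, beside 4 excitatory neuron markers on the right. Fezf2, Tbr1, Bcl11a and Bcl11b lie within 19.0% to 23.9% in astrocytes and 6.06% to 12.7% in microglia, and Cux1 lies at 304% and 444%.

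Further transcription factors known to work with these genes in cortical neurons were read from a list of 22. In layer V neurons against the other 3 neuronal types 17 were higher and 5 lower, with a median log2 fold of 1.87, where 35.9% of all genes were higher and 31.7% lower with a median of 0.04. Emx1, a dorsal forebrain homeobox gene (6.12, SE 0.11), and Neurod6, a factor of differentiating pyramidal neurons (5.73, SE 0.19), were highest. Pax6 (-3.44, SE 0.19), Zfpm2 (-2.74, SE 0.09) and Nfia (-2.12, SE 0.06) were lowest, and all 3 were highest in cerebellar granule cells, Pax6 at 258 ± 8.59 TPM (SD, n = 3). Emx1 was at 36.7 ± 0.963 TPM in layer V neurons, 29.6 ± 4.00 in dentate gyrus granule cells and 0.775 ± 0.0126 in interneurons.

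In neurons against glia 7 of the 22 were higher, 14 lower and 1 not called, where 36.4% and 46.8% of all genes were, and the median was -0.48 against -0.18. Zfpm2 (3.27, SE 0.08), Bhlhe22 (3.19, SE 0.07) and Neurod2 (2.70, SE 0.08) were highest, and Emx2 (-4.51, SE 0.09), Lhx2 (-3.51, SE 0.07) and Rorb (-3.05, SE 0.07) lowest. The last 3 were highest in astrocytes, Lhx2 at 242 ± 19.0 TPM (SD, n = 3). In astrocytes 12 of the 22 stood above their layer V level, from Nfib at 129% to Emx2 at 6470%, and 10 stood below it, from Pou3f1 at 6.76% to Nr4a2 at 49.3%.

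Bcl11a and Bcl11b are known as subunits of the neuronal BAF chromatin remodelling complex, and 16 other subunits were read beside them. Against the other neurons, 5 were higher in layer V neurons, 10 lower and 1 not called, with a median log2 fold of -0.31 (35.9% and 31.7% of all genes, median 0.04). Dpf1 (1.20, SE 0.05), Smarcd1 and Smarcd3 (0.70 each) were higher, and Dpf3 (-4.15, SE 0.16), Ss18 (-1.90, SE 0.06) and Actl6a (-0.87, SE 0.08) lower. Against glia, 10 were higher and 5 lower, with a median of 0.55 (36.4% and 46.8% of all genes, median -0.18), and with the neuron-specific subunits Actl6b (1.87, SE 0.03), Ss18l1 (1.85, SE 0.04) and Dpf1 (1.33, SE 0.04) at one end. Their progenitor counterparts Actl6a (-1.78, SE 0.05) and Ss18 (-1.40, SE 0.04) stood at the other, with Smarce1 (-0.35, SE 0.03). Actl6b was at 112 to 166 TPM on average in the excitatory types, 92.5 in interneurons, and 26.8 and 30.3 in astrocytes and microglia, so that unlike Bcl11a and Bcl11b it was not lowest in cerebellar granule cells.

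Of 6 paralogues of the members, Fezf1 and Foxp3 were too low to test, with means of at most 0.112 TPM. Foxp4 was higher in layer V neurons than in the other neurons (0.84, SE 0.05) and in neurons than in glia (1.30, SE 0.04). Etv5 was higher in layer V neurons than in other neurons (2.53, SE 0.13) and lower in neurons than in glia (-2.06, SE 0.10), as was Etv4 in the second comparison (-3.60, SE 0.10). Etv1 in cerebellar granule cells at 728 TPM thus stood beside Etv5 at 17.8 and Etv4 at 1.40 TPM. Eomes, the paralogue of Tbr1, was not called in either comparison and was at 36.5 ± 4.12 TPM in cerebellar granule cells, where Tbr1 was at 1.10 ± 0.271 (SD, n = 3).

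The genes whose pattern was most like a member's were found by Pearson's r of log2(TPM + 1) over the 18 libraries, as a description. Libraries of a type share tissue and driver, so r mainly restates the order of 6 types. The 3 nearest were Grik4, Npy1r and Arhgef28 for Bcl11b (r of 0.992 to 0.993), Ajap1, Cacng3 and Ier5l for Bcl11a (0.994 each), and Camk2n1, Gm35161 and Lmo4 for Fezf2 (0.967 to 0.975). Tbr1 was most like Emx1 (0.982), Glt8d2 and Wnt9a, and Etv1 like Gm2694 (0.976), Sebox and Crhr1. Cux1 was most like Leng1 (0.981), Aldh3a2 and Pias3. For Cux2 they were Gm21926 (0.965), Phlda1 and Pvalb, the parvalbumin gene of fast-spiking interneurons, at 610 TPM in interneurons and 40.5 in layer V neurons. For Foxp1 they were Gm43681 (0.933), Gm3892 and Slc38a6, and for Foxp2 Cd164l2 (0.915), Mrm1 and Cbln2. Some of these names depend on the scale. With log2(TPM + 0.1), only Arhgef28 stayed among the 3 nearest of Bcl11b, only Ajap1 of Bcl11a and only Gm35161 of Fezf2. Tbr1, Etv1, Cux1 and Cux2 kept all 3. Among the members themselves Fezf2 and Tbr1 (0.94) and Bcl11a and Bcl11b (0.92) ran together, and Bcl11b and Cux1 ran opposite (-0.95).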

How the data were processed

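Ribosome-bound mRNA of 6 cell types was compared over 18 libraries, 3 biological replicates per type with replicate numbers from the labels. The deposited estimated counts and TPM per transcript were made by the authors with cutadapt 3.5 and kallisto 0.46.2 (submitters' processing notes) on GENCODE release 24 transcripts per the methods, which named sleuth for testing. TPM were computed by the authors from the same estimates and each transcript's effective length. Here both were summed per gene, and estimated counts were rounded to whole numbers. Reads that fit several transcripts are divided among them by estimation, so transcript shares carry more uncertainty than gene sums.

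Genes were filtered with filterByExpr (minimum count 10, minimum total 15), scaled by TMM and tested with edgeR 4.0.16's quasi-likelihood test in R 4.3.3, with 1 fit over the 18 libraries (12 residual degrees of freedom), Benjamini-Hochberg adjustment over 20524 genes and a threshold of 0.05. The study's tool needs resampled estimates that were not used here. Calls at 4-fold or more also needed that size of fold. The code was tested on simulated data. Coding exons and sequences came from GENCODE release 21 (GRCm38), in which 105 of 105 member transcripts were found.

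The members and gene lists were chosen with earlier results of these data known. All 9 members are named, and beyond them, per list and comparison, the 3 largest called folds in each direction (1 gene that this rule names is not reported here) and, per member, the 3 genes of highest Pearson's r among 14157 genes with a mean of 5 TPM or more in a cell type. Genes mentioned for a library that stood apart were chosen after their values were seen. Where a replicate was sequenced in both batches, the batch 1 library was used. The alternatives were RLE scaling, DESeq2 1.42.0, no filter, batch 2 libraries in place of batch 1 or alone, batch as a covariate over 22 libraries, protein-coding transcripts only, limma 3.58.1 on log2(TPM + 1), the replicate number as a block, and leaving out each library. p-values measure the spread between libraries of separate animals or pools within each cell type.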

Additional observations from a re-analysis of the deposited data

How the results depend on the processing

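Of the 9 members' folds in the comparisons of layer V neurons with the other neurons and of neurons with glia, none changed sign under any alternative run. The count of members lower in neurons than in glia was 2 with limma on log2(TPM + 1) against 4 by edgeR. Cux2, not called in neurons against glia, was called higher without the filter (log2 fold 0.31, adjusted p = 0.0073), with batch as a covariate (0.41, adjusted p = 0.0079), in batch 2 alone (0.54, adjusted p = 2.4e-05, with 1 library in each of 4 types, whose spread is taken from interneurons and microglia, and dentate gyrus replicate 3 the only one of its type) and without dentate gyrus replicate 3 (0.16, adjusted p = 0.013), among others. Of the 123 calls over the 15 pairs, batch 2 alone (10 libraries) lost 3 (Fezf2 in dentate gyrus granule cells against astrocytes, and Foxp1 in cerebellar granule cells against dentate gyrus granule cells and against microglia) and limma lost 1 (Foxp2 in astrocytes against microglia). Leaving out 1 library at a time gave 123 to 127 calls, and the highest was without interneuron replicate 3. Members higher in layer V neurons than in the other neurons stayed at 8 and lower at 1, higher in neurons than in glia came to 4 to 5 and lower stayed at 4, and 4 to 5 members were highest in layer V neurons.

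As shares of estimated counts instead of TPM, layer V neurons had 3.14% of Bcl11b in Bcl11b-203, 48.6% of Foxp1 in Foxp1-206, 39.3% of Cux1 in transcripts with the homeodomain and 26.7% of Bcl11a in Bcl11a-204, and dentate gyrus granule cells had 16.9% in Bcl11b-203. TPM divides by length, so the share of a short transcript is smaller by counts.

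Whether replicate numbers pair the samples was not settled. Deviations of same-numbered libraries correlated at -0.16 to 0.22 (median 0.04) and of others at -0.23 to 0.24 (median -0.02). Of 18 libraries, 10 correlated best with their own number, and the count expected without pairing was not worked out. Layer V and dentate gyrus libraries share a driver and, among the 18 libraries, the sex label at each number. Their same-numbered libraries correlated at -0.05 to 0.01. The labels do not state whether the same mice gave both, and these correlations cannot decide it. With the replicate block the 15 pairs gave 123 calls, with 0 lost and 0 gained, and the other comparisons kept 8 higher and 1 lower, and 4 higher and 4 lower. Interneurons and microglia were sequenced only in batch 2, and the fit over 18 libraries had no batch term. In that fit, cell type and batch therefore cannot be told apart in the folds of these 2 types against batch 1 libraries. With batch as a covariate over 22 libraries, the 15 pairs had 0 calls lost and 2 gained. That batch term rests on the 4 replicates sequenced in both, whose repeats it counts as separate libraries. The second libraries of the 4 replicates sequenced in both, all of other types, entered only the alternatives and the TPM ratios.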
